A study of Homo sapiens with 24 samples.

Results

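The AP-1 and BATF factors are transcription factors of the leucine zipper class, and the transcripts of their 10 genes were followed across 4 multiple myeloma cell lines with and without knock down of IRF4. The members were chosen by gene symbol alone. They were JUN, JUNB and JUND of the JUN family, FOS, FOSB, FOSL1 and FOSL2 of the FOS family, and BATF, BATF2 and BATF3 of the BATF family. All 10 were found among the 25341 genes of the deposited table that carried a usable symbol.

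AP-1 is a dimer in which a JUN protein pairs with another JUN, FOS, ATF or BATF protein through a leucine zipper and binds a short palindromic element of DNA. FOS and BATF proteins do not form stable dimers on this element by themselves and need a JUN partner, and BATF proteins lack the activation domains of FOS and FOSB. In B and T cells a BATF and JUN dimer recruits IRF4 or IRF8 to composite elements, where the AP-1 element lies beside part of an IRF element, and IRF4 also pairs with the ETS factors PU.1 and SPIB.

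RNA of the established myeloma lines MM1R, MM1S, KMS-12-BM and KMS-12-PE was sequenced in 3 siIRF4 and 3 CTRL libraries per line, 24 libraries in all. The siIRF4 cells had received a pool of siRNAs against IRF4 by electroporation 48 hours before harvest. The CTRL cells are labelled as treated with DMSO at a time of 0 hours, and the labels name no control siRNA, so the knock down, delivery of siRNA, DMSO and hours of culture differed together and cannot be told apart. MM1R and MM1S are sister lines from one patient, the first of them selected for resistance to glucocorticoid, and KMS-12-BM and KMS-12-PE were derived from bone marrow and pleural effusion of another. The labels do not say whether replicates were separate cultures, so p-values measure the spread between these libraries, which may be technical.

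Levels are given in TPM, which divides reads by gene length and sums to the same total in each library. Whole reads could be recovered from the deposited TPM, and they numbered 17.3 to 27.4 M per library. Log2 changes are differences of mean log2(TPM + 1), siIRF4 minus CTRL with their SE, and they understate the change of genes near or below 1 TPM. A change was called where limma gave a two-sided p under 0.05 after Benjamini-Hochberg adjustment over the 15113 genes that reached 1 TPM in at least 3 libraries. Of the members 7 passed this filter on low values, and FOS, FOSB and BATF2 did not. FOSL1 and BATF3 passed through the lines where they are high, with 9 and 14 of the 24 libraries at 1 TPM or more, so counts over the 7 are descriptions only.

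IRF4, the target of the siRNAs, had 259.9, 299.4 and 313.6 TPM in MM1R siIRF4 libraries, against 376.4, 365.3 and 399.3 TPM in MM1R CTRL libraries. Its mean was 140.5 TPM in siIRF4 and 283.4 TPM in CTRL cells of MM1S, 222.3 and 360.8 TPM in KMS-12-BM, and 155.3 and 327.4 TPM in KMS-12-PE. The siIRF4 libraries of each line were lower than every CTRL library of that line. The transcript loss was 52.6% in KMS-12-PE and 50.4% in MM1S, then 38.4% in KMS-12-BM, and it was smallest in MM1R with 23.5%.

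All 8 plasma cell markers examined were present in every line, SDC1, CD38, TNFRSF17, XBP1 and PRDM1 among them, with summed levels between 1330.0 and 22121.1 TPM per library. With siIRF4, 1 of the 8 was higher and 6 were lower on average (median log2 change -0.23), and 4 or 5 were lower in each line. On average 33.1% of all genes tested were called higher and 26.5% lower. The summed level was higher with siIRF4 in MM1R, at 20821.0 to 22121.1 TPM in siIRF4 and 17759.0 to 18968.3 TPM in CTRL libraries. It was also higher in MM1S, at 13808.9 to 14363.7 and 11895.1 to 12653.3 TPM. In KMS-12-BM it was lower, at 1330.0 to 1449.8 and 1704.7 to 1768.7 TPM. The same held in KMS-12-PE, at 3745.2 to 3823.5 and 4460.0 to 4824.8 TPM. Markers of other cell types were present too, to a different extent in each line. KRT14, a keratin of squamous epithelium, averaged 34.3 TPM in siIRF4 and 48.3 TPM in CTRL cells of MM1S, and 15.7 and 52.3 TPM in KMS-12-PE, and COL3A1, a fibroblast collagen, averaged 9.69 and 10.7 TPM in MM1S and 3.65 and 10.5 TPM in KMS-12-PE. In MM1R, KRT14, COL3A1 and S100A8 were at 0 in all 6 libraries. In KMS-12-BM S100A8 was at 0 in all 6 libraries and COL3A1 did not pass 0.0484 TPM, but the 9 stromal markers summed to 53.6 to 57.6 TPM in siIRF4 and 83.7 to 88.2 TPM in CTRL libraries, without overlap. The 5 epithelial markers summed there to 149.7 to 156.8 TPM in siIRF4 and 143.2 to 147.9 TPM in CTRL libraries, nearly all of it EPCAM, with 152.0 and 146.1 TPM. Of 5 myeloid markers S100A9, a calprotectin subunit, averaged 94.7 TPM in siIRF4 and 24.8 TPM in CTRL cells of MM1R, and the other markers on that list were under 0.2 TPM there. The myeloid sum was 36.3 to 51.5 TPM in siIRF4 and 147.1 to 183.2 TPM in CTRL libraries of KMS-12-PE, 62.9 to 168.6 and 106.3 to 173.2 TPM in MM1S, and at most 0.818 TPM in KMS-12-BM. The summed T and NK cell markers, 7 genes, were 60.4 to 65.3 TPM in siIRF4 and 25.8 to 29.5 TPM in CTRL libraries of KMS-12-PE, and 31.3 to 35.3 and 22.8 to 24.7 TPM in KMS-12-BM. In the MM1 lines this sum was lower with siIRF4, at 61.1 to 67.4 TPM in siIRF4 and 70.2 to 74.3 TPM in CTRL libraries of MM1R, and 67.9 to 72.8 and 78.2 to 84.7 TPM in MM1S. By gene, 6 of the 7 were tested, and 5 were higher and 1 lower on average. In MM1R 1 was higher and 1 lower (median log2 change 0.10), and in MM1S 2 were higher and 1 lower (median 0.13). Of the 9 stromal markers 0 were higher and 8 lower on average, and of 4 epithelial markers tested 0 were higher and 2 lower. ITGB7, an integrin gene high in the MM1 lines, was in KMS-12-PE at 0.105% of its MM1S level in siIRF4 and 0.714% in CTRL cells. In KMS-12-BM it had 186.0, 64.1 and 58.1 TPM in siIRF4 and 82.3, 93.2 and 86 TPM in CTRL libraries. There siIRF4 library 1 stood above all others, and the source of this was not tested.

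FOSL2 transcript was lower in siIRF4 than in CTRL cells of all 4 lines and JUN transcript in 3 of them, all but KMS-12-BM, while JUNB, the most abundant JUN family transcript of KMS-12-BM, averaged a change of 0.03 ± 0.033. On average JUND and BATF3 fell, by 0.22 and 0.40 on the log2 scale, and BATF rose by 0.23. On average over the 4 lines 1 of the 7 members tested was higher and 4 were lower, where 59.6% of all genes tested were called, 33.1% higher and 26.5% lower. In MM1R 0 members were higher and 4 lower, where 46.2% of all genes were called, 25.0% higher and 21.2% lower. In MM1S 2 were higher and 2 lower, where 50.3% of all genes were called, 29.1% higher and 21.1% lower. In KMS-12-BM 0 were higher and 2 lower, where 17.5% of all genes were called, 11.4% higher and 6.09% lower. In KMS-12-PE 2 were higher and 3 lower, where 38.1% of all genes were called, 15.9% higher and 22.2% lower. The members called were thus 4 of 7 in both MM1 lines, near the share of all genes. The members' median change was -0.49 in MM1R, -0.14 in MM1S and -0.11 in KMS-12-BM, and -0.20 for KMS-12-PE, against 0.026, 0.045, 0.037 and -0.022 over all genes. Where siIRF4 and CTRL libraries are said not to overlap, the share of all genes with every siIRF4 library below every CTRL library was 24.4% in MM1R and 22.6% in MM1S, 12.3% in KMS-12-BM and 27.7% for KMS-12-PE. The share with every siIRF4 library above was 29.4% and 32.4% in the MM1 lines, 22.0% in KMS-12-BM and 19.7% for KMS-12-PE. In bulk RNA, fewer cells of a type and less RNA per cell cannot be told apart.

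**Figure D1:**
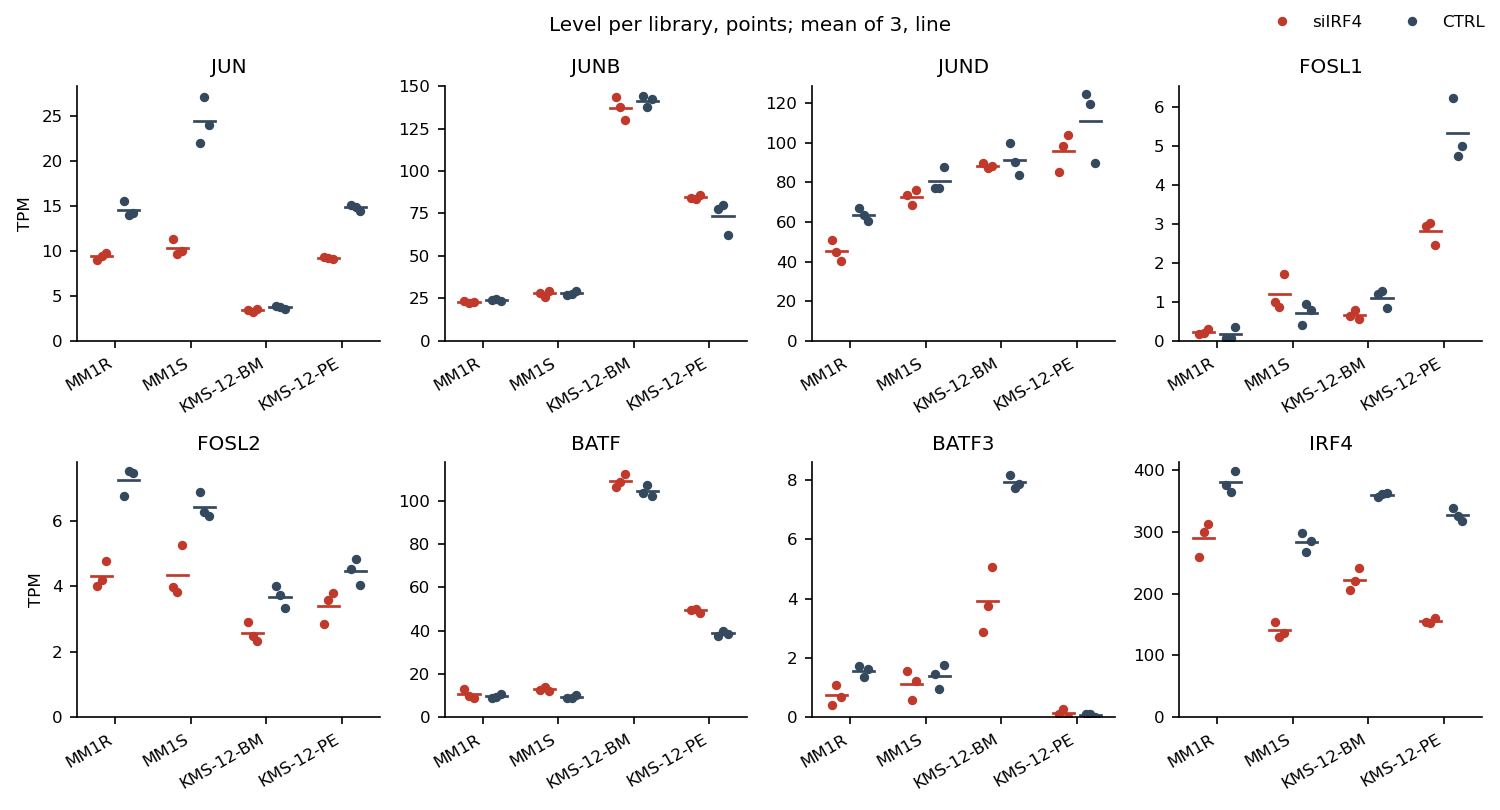
Level in TPM of the 7 members tested and of IRF4 in each library (points; red, siIRF4; dark blue, CTRL), with the mean of the 3 libraries of a group as a line. JUN and FOSL2 lay lower in siIRF4 libraries of MM1R, MM1S and KMS-12-PE without overlap, and BATF and JUNB differed more between lines than between conditions.

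JUN is the best known activator of the family and the usual partner of FOS. It had 11.3, 9.58 and 10 TPM in MM1S siIRF4 libraries, against 22, 27.1 and 24 TPM in MM1S CTRL libraries. It had 8.98, 9.37 and 9.69 TPM in MM1R siIRF4 libraries, against 15.5, 14 and 14.2 TPM in MM1R CTRL libraries. The siIRF4 libraries of both lines were all low and close to each other, and did not reach the CTRL libraries. In KMS-12-PE the siIRF4 libraries had 9.25, 9.14 and 9.11 TPM and the CTRL libraries 15.1, 14.9 and 14.4 TPM, again without overlap. In KMS-12-BM the siIRF4 libraries had 3.39, 3.15 and 3.53 TPM and the CTRL libraries 3.88, 3.73 and 3.47 TPM, and here the groups overlapped.

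The loss of JUN transcript was 57.7% in MM1S, 38.1% in KMS-12-PE and 35.8% in MM1R. The log2 changes were -1.16 ± 0.070 in MM1S, -0.64 ± 0.070 in KMS-12-PE and -0.59 ± 0.070 in MM1R, with limma adjusted p = 2.7e-11, 3.1e-07 and 5.5e-07. In KMS-12-BM the change was -0.11 ± 0.070 (adjusted p = 0.329). Averaged over the lines JUN fell by 0.62 ± 0.035 (adjusted p = 3.4e-12), and with conditions permuted within lines the exact p was 2.5e-05, two-sided. After siIRF4 the 3 lines with more JUN stood at nearly one level, 9.35 ± 0.357 TPM in MM1R, 10.3 ± 0.919 TPM in MM1S and 9.17 ± 0.0714 TPM in KMS-12-PE (SD, n = 3 each), where the libraries of MM1R overlapped with those of both other lines.

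The JUN effect differed between lines, as tested by the difference of the changes. It was less negative in MM1R than in MM1S by 0.58 ± 0.098 (limma adjusted p = 0.00246), and JUN was the 1 member called in this comparison, where 2.47% of all genes were called, 1.14% higher and 1.33% lower. It was less negative in KMS-12-BM than in KMS-12-PE by 0.53 ± 0.098 (adjusted p = 0.00057), in a comparison that called 1 member higher and 1 lower, and 23.0% of all genes, 15.9% higher and 7.11% lower. The MM1 lines together minus the KMS-12 lines gave -0.50 ± 0.070 (adjusted p = 4.6e-06), in a comparison that again called 1 member higher and 1 lower, and 44.9% of all genes, 25.0% higher and 20.0% lower. IRF4 itself was reduced less in MM1R than in MM1S, by 0.62 ± 0.094 on the same scale, and less in KMS-12-BM than in KMS-12-PE, by 0.37 ± 0.094. It was also reduced less in the MM1 lines than in the KMS-12 lines, by 0.19 ± 0.067 (limma adjusted p = 0.0273). There the JUN change went the other way, being more negative in the MM1 lines.

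Markers of other cell types differed between conditions in the lines in which JUN fell, and also in KMS-12-BM, where JUN was not called. The stromal sum of KMS-12-BM, given above, was lower with siIRF4 without overlap. Of its 9 genes 2 were called lower and 0 higher there (median log2 change -0.02), and the same counts held in MM1R (median 0.00). In KMS-12-PE 7 were lower and 0 higher (median -1.21), and in MM1S 1 was lower and 1 higher (median -0.18). The sum of 9 stromal markers was 108.1 to 124.1 TPM in KMS-12-PE siIRF4 libraries and 173.4 to 230 TPM in KMS-12-PE CTRL libraries, with none of the 9 absent, and 126.1 to 171.5 TPM in MM1S siIRF4 libraries and 131.5 to 239.2 TPM in MM1S CTRL libraries, which overlapped. In MM1R it was 15.5 to 20.3 TPM in siIRF4 and 33.8 to 35.9 TPM in CTRL libraries, without overlap, and SPARC, a secreted matrix protein gene on this list, averaged 12.5 and 25 TPM. The sum of 5 epithelial markers was 163.4 to 184.2 TPM in KMS-12-PE siIRF4 libraries and 224.2 to 246.3 TPM in KMS-12-PE CTRL libraries. In MM1S it was 35.9 to 97.5 TPM in siIRF4 and 82.6 to 125.1 TPM in CTRL libraries, which overlapped. The myeloid sum given above was lower with siIRF4 in KMS-12-PE and higher in MM1R, without overlap in either, and overlapped in MM1S. The T and NK cell sum was lower with siIRF4 in both MM1 lines and higher in both KMS-12 lines, without overlap in any. By gene, 1 was higher and 1 lower in MM1R, and 2 were higher and 1 lower in MM1S, as given above. The part of these markers in the JUN values was not tested. Averaged over MM1R and KMS-12-BM alone, an alternative chosen after the data were seen, JUN fell by 0.35 ± 0.049 (limma adjusted p = 7.6e-06) and FOSL2 by 0.51 ± 0.072 (adjusted p = 7.2e-06). Of these 2 lines JUN was called in MM1R only (-0.59), with -0.11 in KMS-12-BM (limma adjusted p = 0.329), so the JUN value rested on MM1R. The stromal sum was lower with siIRF4 in both lines, so this average cannot test the part of the markers.

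**Figure D2:**
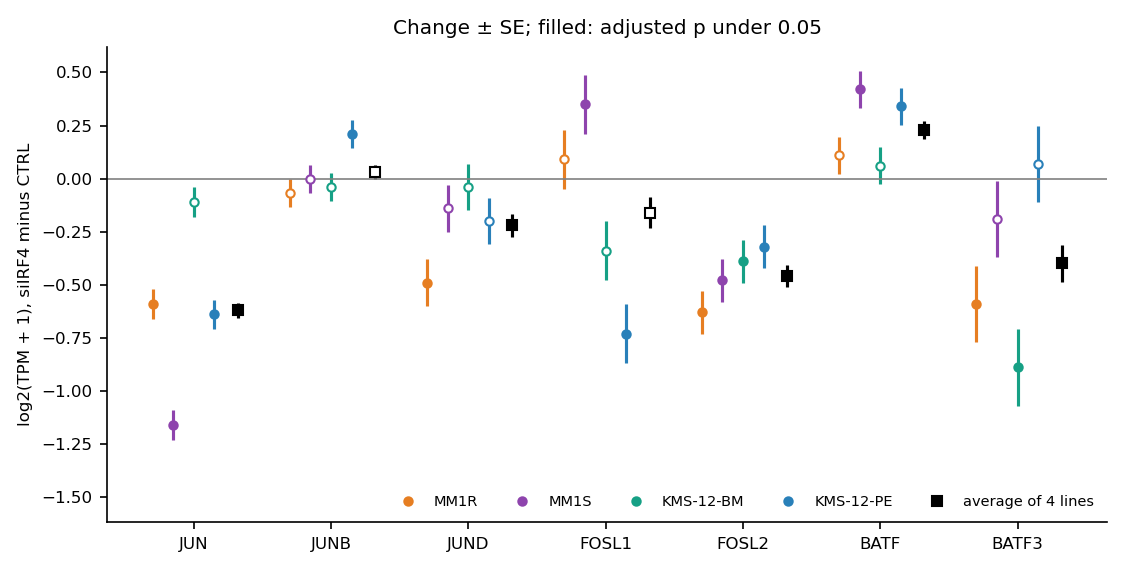
Log2 change of each member tested, siIRF4 minus CTRL on the log2(TPM + 1) scale, with its SE as a bar, for each line (circles) and for the average of the 4 lines (black squares); filled symbols passed an adjusted p of 0.05. FOSL2 was filled and negative in all 4 lines, and JUN lay between -1.16 in MM1S and -0.11 in KMS-12-BM.

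JUN is known to be switched on through its own promoter, by JUN and ATF2 dimers bound to variant AP-1 elements. The promoter sequences here come from RefSeq on build GRCh38.p14, whose table held 8 of the 10 members, with 250 bases before and 50 after the annotated start. The JUN promoter is printed because JUN had the largest average fall, and the short stretches of FOSL2 and JUND because they hold an element of the same kind. Each is written in the direction of transcription, with the match to an AP-1 or CRE-like motif in capitals.
JUN, chr1:58784048-58784297, minus strand, the 250 bases before the start: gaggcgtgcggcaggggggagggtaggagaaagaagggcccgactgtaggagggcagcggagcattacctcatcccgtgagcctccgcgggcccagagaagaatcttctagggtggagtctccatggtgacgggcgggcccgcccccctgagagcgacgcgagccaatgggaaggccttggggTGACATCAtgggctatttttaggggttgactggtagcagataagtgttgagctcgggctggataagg
FOSL2, chr2:28392851-28392880, plus strand: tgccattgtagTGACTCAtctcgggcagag
JUND, chr19:18281804-18281833, minus strand: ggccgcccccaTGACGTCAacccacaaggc

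The motifs were searched on both strands of the 300-base windows. The AP-1 motif TGANTCA was found in 1 of the 8 members' windows, that of FOSL2 at bases 5 to 11 after the start, and in 7.71% of all 35116 promoters in the table. The CRE-like motif TGACNTCA was found in JUN at 67 to 60 bases before the start, in JUND and in BATF2, 3 of 8, and in 7.72% of all promoters. The IRF motif, GAAA followed after any 2 bases by GAAA, was in 3.57% of all promoters and in 0 of the 8 windows. The composites of an IRF and an AP-1 element, TTTC followed after any 4 bases by TGANTCA and GAAA followed directly by TGANTCA, contain the AP-1 motif and were in 0.114% and 0.162% of all promoters and in 0 of the 8 windows. These letters are a description of the windows and do not show which factor binds there.

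FOSL2, whose protein FRA2 lacks the strong activation domain of FOS, was the most abundant FOS family transcript in all groups but CTRL cells of KMS-12-PE, and it was the 1 member lower in siIRF4 libraries without overlap in all 4 lines. It had 4.02, 4.2 and 4.77 TPM in MM1R siIRF4 libraries, against 6.76, 7.53 and 7.47 TPM in MM1R CTRL libraries. It had 3.98, 3.83 and 5.27 TPM in MM1S siIRF4 libraries, against 6.88, 6.27 and 6.15 TPM in MM1S CTRL libraries. Every siIRF4 value of the MM1 lines stood below every CTRL value of either MM1 line. In KMS-12-BM it had 2.91, 2.47 and 2.32 TPM in siIRF4 and 4, 3.73 and 3.33 TPM in CTRL libraries. In KMS-12-PE it had 2.84, 3.57 and 3.79 TPM in siIRF4 and 4.53, 4.85 and 4.05 TPM in CTRL libraries, where the closest libraries of the 2 groups were 3.79 and 4.05 TPM.

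The loss of FOSL2 was 40.3% for MM1R, 32.2% for MM1S, 30.4% for KMS-12-BM and 24% for KMS-12-PE, with log2 changes of -0.63, -0.48, -0.39 and -0.32 (SE 0.10 each) and limma adjusted p = 3e-05, 0.00048, 0.00959 and 0.0173. On average it fell by 0.46 ± 0.051 (adjusted p = 1.2e-07), and the exact permutation p over lines was 1.3e-05, the smallest possible. Of all genes tested, 3.29% lay lower in siIRF4 libraries without overlap in all 4 lines. No difference of the FOSL2 effect between lines passed the test, the one between MM1 and KMS-12 lines being -0.20 ± 0.10 (adjusted p = 0.122), though it was called without siIRF4 library 3 of MM1S (-0.26, adjusted p = 0.0302) or siIRF4 library 1 of KMS-12-PE (-0.25, adjusted p = 0.0489). The KMS-12-BM call was lost without CTRL library 1 (-0.35, adjusted p = 0.0511), and the KMS-12-PE call without siIRF4 library 1 (-0.22, adjusted p = 0.118), without CTRL library 2 (-0.27, adjusted p = 0.0767) and when KMS-12-PE was fitted on its own (adjusted p = 0.059). The stromal marker sum was also lower in siIRF4 libraries of MM1R, KMS-12-BM and KMS-12-PE, as given above. Of its 9 genes 2, 2 and 7 were called lower in these lines, and its part in the FOSL2 fall was not tested. The gene overlaps the antisense RNA gene FLJ31356, which had at most 4 reads in a library.

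FOSL1, whose protein FRA1 is often high in invasive epithelial cancers, was highest in KMS-12-PE. It had 2.94, 3.03 and 2.46 TPM in KMS-12-PE siIRF4 libraries, against 6.23, 4.75 and 5 TPM in KMS-12-PE CTRL libraries. All siIRF4 libraries were low, and the groups were far apart. In KMS-12-BM it had 0.637, 0.784 and 0.56 TPM in siIRF4 and 1.2, 1.27 and 0.829 TPM in CTRL libraries, with no overlap. In MM1S it had 0.995, 0.87 and 1.7 TPM in siIRF4 and 0.404, 0.952 and 0.788 TPM in CTRL libraries, which overlapped, and in MM1R no library passed 0.344 TPM.

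FOSL1 fell by 0.73 ± 0.14 in KMS-12-PE (limma adjusted p = 0.00035). It changed by -0.34 ± 0.14 in KMS-12-BM (adjusted p = 0.11) and by 0.35 ± 0.14 in MM1S, where the adjusted p of 0.0481 passed the threshold, but not with a pseudocount of 0.1 (0.107), without a filter (0.0725), with median-of-ratios scaling (0.0577), in a separate fit (0.141), with voom on recovered reads (0.103), or without siIRF4 library 3 (0.19, adjusted p = 0.308), CTRL library 1 (0.21, adjusted p = 0.267) or CTRL library 3 (0.38, adjusted p = 0.0588) of MM1S. It also lost the call, with adjusted p-values up to 0.0544, without most single libraries of the other lines. The effect differed between MM1 and KMS-12 lines, by 0.75 ± 0.14 (adjusted p = 0.00019). FOSL1 had at most 6 reads in a library of MM1R, 26 in MM1S and 23 in KMS-12-BM. On average FOSL1 changed by -0.16 ± 0.071 (adjusted p = 0.0619), a change called without siIRF4 library 3 (-0.20, adjusted p = 0.013) or CTRL library 1 (-0.19, adjusted p = 0.0197) of MM1S, CTRL library 3 of KMS-12-BM (-0.18, adjusted p = 0.0347) or CTRL library 2 of KMS-12-PE (-0.17, adjusted p = 0.049). The keratin, stromal and myeloid markers given above were lower in the siIRF4 libraries of KMS-12-PE, KRT5 at 17.4 TPM in siIRF4 and 55.8 TPM in CTRL cells, and their part in the FOSL1 fall was not tested.

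FOS and FOSB, the stress-inducible members with full activation domains, were low in all lines, and FOS was near the limit of detection. FOS had 168 reads over all 24 libraries, 70 in siIRF4 and 98 in CTRL libraries, and its highest level was 0.714 TPM. In KMS-12-PE it had 0, 6 and 4 reads in siIRF4 libraries and 10, 12 and 9 reads in CTRL libraries, without overlap, and the change without a filter on low values was -0.41 ± 0.16 (limma adjusted p = 0.0647). The library at 0 allows up to 0.162 TPM, the level of 3 reads, for counting error only. FOSB had 188 reads in siIRF4 and 197 in CTRL libraries, and 2 libraries at 1 TPM or more. It was highest in KMS-12-BM, with 48, 18 and 17 reads in siIRF4 libraries and 36, 30 and 35 reads in CTRL libraries, where siIRF4 library 1 stood above all CTRL libraries and the others below them. Without a filter, FOSB in CTRL cells was lower in the MM1 lines than in the KMS-12 lines by 0.42 on the log2 scale (SE 0.071, limma adjusted p = 2.4e-05). It was higher in KMS-12-BM than in KMS-12-PE by 0.36 ± 0.10 and in MM1R than in MM1S by 0.37 ± 0.10 (limma adjusted p = 0.00376 and 0.00506). In TPM, FOSB lay higher in siIRF4 libraries of MM1S and lower in those of MM1R, without overlap in either, at 15 reads or fewer in each library. No siIRF4 change of FOSB passed the test, the smallest adjusted p being 0.132 in MM1S. FOSB overlaps ERCC1, which had 7.32 to 23 TPM, and the strand setting of the counts is not given in the sources used here.

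**Figure D3:**
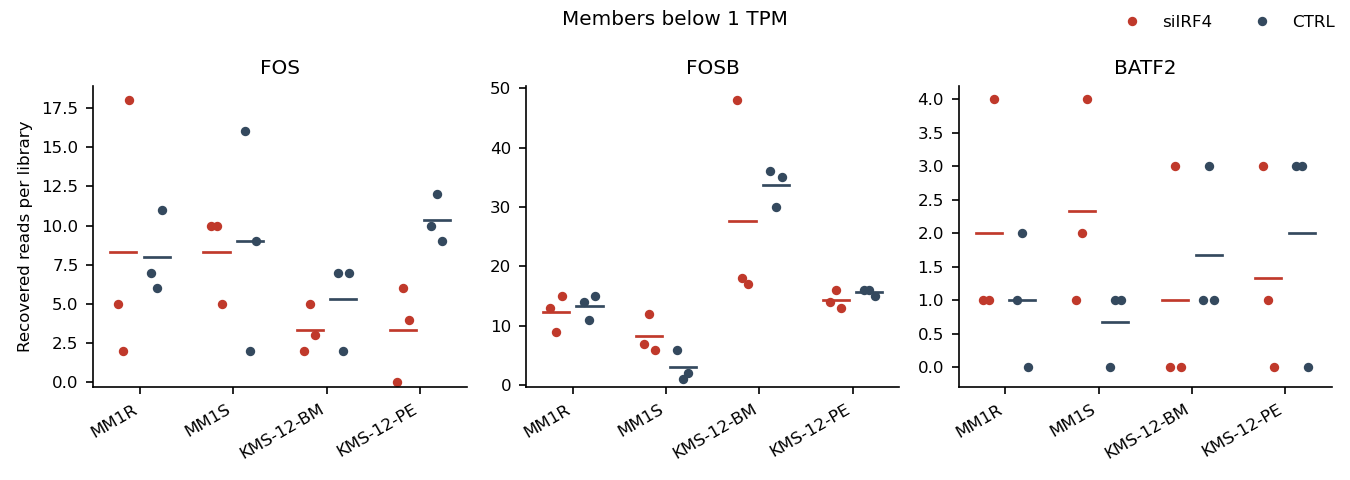
Recovered reads per library of the 3 members below the filter on low values (points; red, siIRF4; dark blue, CTRL) with the group mean as a line. FOS stayed at 18 reads or fewer and BATF2 at 4 or fewer in each library, and FOSB reached 48 reads in KMS-12-BM.

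JUNB, which can restrain JUN and pairs with BATF in lymphocytes, differed far more between lines than with siIRF4. It had 143.6, 137.9 and 130.4 TPM in KMS-12-BM siIRF4 libraries, against 144.1, 137.9 and 142.6 TPM in KMS-12-BM CTRL libraries. In the MM1 lines every library lay between 22.1 and 29.5 TPM, and the conditions overlapped in KMS-12-BM and in both MM1 lines. In KMS-12-PE it had 84.2, 83.4 and 85.9 TPM in siIRF4 libraries and 77.7, 79.8 and 62.5 TPM in CTRL libraries. Here the siIRF4 libraries lay above all CTRL libraries, of which the third was low.

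The JUNB change was 0.21 ± 0.066 in KMS-12-PE (limma adjusted p = 0.016) and between -0.07 and 0.00 in the other lines. Without CTRL library 3 of KMS-12-PE it was 0.10 ± 0.052 (adjusted p = 0.15), without siIRF4 library 3 the adjusted p was 0.0511, and in a separate fit it was 0.111. The difference of the JUNB effect between KMS-12-BM and KMS-12-PE, -0.25 ± 0.094 (adjusted p = 0.0556), was called with median-of-ratios scaling (-0.31, adjusted p = 0.0102) and with voom on recovered reads (-0.31, adjusted p = 0.00133). It was also called without siIRF4 library 2 of MM1S, siIRF4 library 1 of KMS-12-BM, or CTRL library 1 or 2 of KMS-12-PE, at -0.25 to -0.32 with adjusted p-values of 0.0189 to 0.0481. JUNB overlaps HOOK2, which had 7.34 to 25.9 TPM.

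JUND, the JUN family member that most cells express at rest, was the most abundant member in MM1R, MM1S and KMS-12-PE. It had 50.8, 44.7 and 40.4 TPM in MM1R siIRF4 libraries, against 66.9, 63.6 and 60.3 TPM in MM1R CTRL libraries, with no overlap. In MM1S it had 73.9, 68.7 and 76 TPM in siIRF4 and 77, 77.4 and 87.6 TPM in CTRL libraries, close but without overlap. In KMS-12-PE it had 85.4, 98.4 and 104.1 TPM in siIRF4 and 124.6, 119.5 and 89.6 TPM in CTRL libraries, and CTRL library 3, low in JUNB as well, lay among the siIRF4 libraries.

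JUND fell by 0.49 ± 0.11 in MM1R (limma adjusted p = 0.00086) and by 0.22 ± 0.053 on average (adjusted p = 0.00143, exact permutation p over lines 0.00345). Its changes in MM1S, KMS-12-BM and KMS-12-PE were -0.14, -0.04 and -0.20 ± 0.11 each and did not pass the test. Without CTRL library 3 the KMS-12-PE change was -0.35 ± 0.090 (adjusted p = 0.00521). The difference of the JUND effect between MM1R and MM1S, -0.34 ± 0.15, had an adjusted p of 0.249.

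BATF, the partner of IRF4 on composite elements, had more transcript in siIRF4 than in CTRL cells of MM1S and KMS-12-PE. It had 12.6, 13.8 and 11.9 TPM in MM1S siIRF4 libraries, against 8.6, 9.01 and 10.3 TPM in MM1S CTRL libraries. It had 49.6, 50.1 and 48.2 TPM in KMS-12-PE siIRF4 libraries, against 37.7, 39.8 and 38.6 TPM in KMS-12-PE CTRL libraries. In both lines every siIRF4 library was above every CTRL library. In MM1R it had 12.8, 9.66 and 9.04 TPM in siIRF4 and 8.92, 9.14 and 10.6 TPM in CTRL libraries, and in KMS-12-BM 106.4, 108.6 and 112.5 TPM in siIRF4 and 103.5, 107.3 and 102.4 TPM in CTRL libraries. These 2 lines showed overlap, and the MM1R mean leant on siIRF4 library 1.

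BATF rose by 0.42 ± 0.087 in MM1S (limma adjusted p = 0.00037) and by 0.34 ± 0.087 in KMS-12-PE (adjusted p = 0.00358), which is 37.2% and 27.4% of the CTRL level. The changes were 0.11 ± 0.087 in MM1R and 0.06 ± 0.087 in KMS-12-BM (adjusted p = 0.321 and 0.691), and without siIRF4 library 1 of MM1R the first of these was -0.03. On average BATF rose by 0.23 ± 0.043 (adjusted p = 8.5e-05, exact permutation p over lines 0.00085). Averaged over MM1R and KMS-12-BM alone the change was 0.09 ± 0.061 (adjusted p = 0.263), so the call on the average rested on MM1S and KMS-12-PE. The part of other cell types' markers in the BATF values was not tested. The differences of effect were -0.31 ± 0.12 for MM1R minus MM1S and -0.28 ± 0.12 for KMS-12-BM minus KMS-12-PE (adjusted p = 0.195 and 0.111). Without siIRF4 library 1 of MM1R the first was -0.44 ± 0.095 (adjusted p = 0.015), and the second was called without that library (-0.28, adjusted p = 0.0301), with voom on recovered reads (-0.35 ± 0.088, adjusted p = 0.00377) and in a separate fit (-0.28 ± 0.052, adjusted p = 0.00314).

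The 250 bases before the BATF start are printed because BATF was the 1 member that rose on average, and they hold neither the AP-1, the CRE-like nor the IRF motif. The capitals mark a match to the NF-kB motif, GGG followed after any 2 bases by TTTCC, which was in 1 of the 8 members' windows and in 1.91% of all promoters.
BATF, chr14:75522219-75522468, plus strand, the 250 bases before the start: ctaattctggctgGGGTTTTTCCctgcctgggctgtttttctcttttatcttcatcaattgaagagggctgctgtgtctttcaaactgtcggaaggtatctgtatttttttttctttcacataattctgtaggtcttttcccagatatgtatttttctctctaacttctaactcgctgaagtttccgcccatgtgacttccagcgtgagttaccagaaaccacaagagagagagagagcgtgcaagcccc

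With less IRF4 and the same or more BATF transcript, the ratio of IRF4 to BATF TPM was lower in siIRF4 than in CTRL libraries of every line. It was 28.7 ± 7.45 in siIRF4 and 39.9 ± 2.30 in CTRL cells of MM1R, and 11.1 ± 1.43 and 30.6 ± 3.59 in MM1S (SD, n = 3 each). It was 2.04 ± 0.107 in siIRF4 and 3.46 ± 0.095 in CTRL cells of KMS-12-BM, and 3.15 ± 0.150 and 8.47 ± 0.443 in KMS-12-PE. The ranges of the 2 conditions did not overlap in any line, and the ratio was lower in both KMS-12 lines, with their high BATF, than in either MM1 line. The ratio is one of transcripts and takes in the knock down of IRF4 itself.

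BATF3, which acts with IRF8 in dendritic cells and can pair with JUN and IRF4 in lymphocytes, was at its highest in KMS-12-BM. It had 2.89, 3.75 and 5.08 TPM in KMS-12-BM siIRF4 libraries, against 8.19, 7.73 and 7.89 TPM in KMS-12-BM CTRL libraries. It had 0.402, 1.1 and 0.693 TPM in MM1R siIRF4 libraries, against 1.73, 1.34 and 1.64 TPM in MM1R CTRL libraries. In both lines the siIRF4 libraries were all lower, and they spread widely among themselves. In MM1S the siIRF4 libraries had 1.57, 0.569 and 1.22 TPM and the CTRL libraries 1.47, 0.945 and 1.75 TPM, which overlapped. In KMS-12-PE 1 siIRF4 and 1 CTRL library were at 0, the highest had 3 reads, and a count of 0 allows up to 0.323 TPM.

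BATF3 fell by 0.89 ± 0.18 in KMS-12-BM (limma adjusted p = 0.0012), a loss of 50.7%, and by 0.59 ± 0.18 in MM1R (adjusted p = 0.00977), a loss of 53.3%. The MM1R value rests on 4, 10 and 8 reads in siIRF4 libraries and 16, 11 and 14 reads in CTRL libraries, and without siIRF4 library 1 it was -0.44 (adjusted p = 0.0716). The KMS-12-BM call was lost with a pseudocount of 0.1 (adjusted p = 0.106). The stromal sum was lower in siIRF4 libraries of both lines, with 2 of its 9 genes called lower in each, and its part in the BATF3 values was not tested. On average BATF3 fell by 0.40 ± 0.089 (adjusted p = 0.00058, exact permutation p over lines 0.00498), and with voom on recovered reads the average change was -0.59 ± 0.26 (adjusted p = 0.0549). KMS-12-BM minus KMS-12-PE gave an effect difference of -0.96 ± 0.25 (adjusted p = 0.00839), which was not called with a pseudocount of 0.1 (adjusted p = 0.124) or with voom (adjusted p = 0.23).

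BATF2, an interferon-inducible member in other blood cells, was hardly detected. It had 20 reads in siIRF4 and 16 reads in CTRL libraries in all, at most 4 in any one of them, and it was at 0 in 6 libraries, each of which allows up to 0.124 to 0.161 TPM. No change of BATF2 passed the test without the filter on low values, the smallest adjusted p among the lines being 0.304 in MM1S.

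The make-up of the whole group was a property of the line first. All 10 members summed to 93.9 ± 6.4 TPM in siIRF4 and 121.5 ± 2.92 TPM in CTRL cells of MM1R, 131.3 ± 6.44 and 151.2 ± 8.25 TPM in MM1S, 346.3 ± 3.92 and 354.9 ± 10.5 TPM in KMS-12-BM, and 245.9 ± 9.85 and 249.0 ± 29.4 TPM in KMS-12-PE (SD, n = 3 each). JUN family transcripts made up 66.1% of the sum in siIRF4 and 66.7% in CTRL cells of KMS-12-BM, and 82.4% and 84% in MM1R. BATF family transcripts made up 32.7% in siIRF4 and 31.7% in CTRL cells of KMS-12-BM. Their share was higher in siIRF4 than in CTRL libraries of the other lines, with means of 20.2% and 15.8% for KMS-12-PE, 12% and 9.22% for MM1R, and 10.7% and 7.09% for MM1S, and the library ranges were apart. In MM1R the BATF family sum itself was alike, 11.3 ± 1.72 TPM in siIRF4 and 11.2 ± 0.933 TPM in CTRL cells. The JUN family sum there was 77.4 ± 5.23 and 102.0 ± 4.3 TPM. The BATF family sum was 49.5 ± 1.16 and 38.9 ± 1.06 TPM in KMS-12-PE, and 14 ± 0.579 and 10.7 ± 1.2 TPM in MM1S. FOS family transcripts did not pass 6.79% in any group mean. In KMS-12-BM the 4 FOS genes together held 4.11 ± 0.632 TPM in siIRF4 and 5.89 ± 0.626 TPM in CTRL cells.

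**Figure D4:**
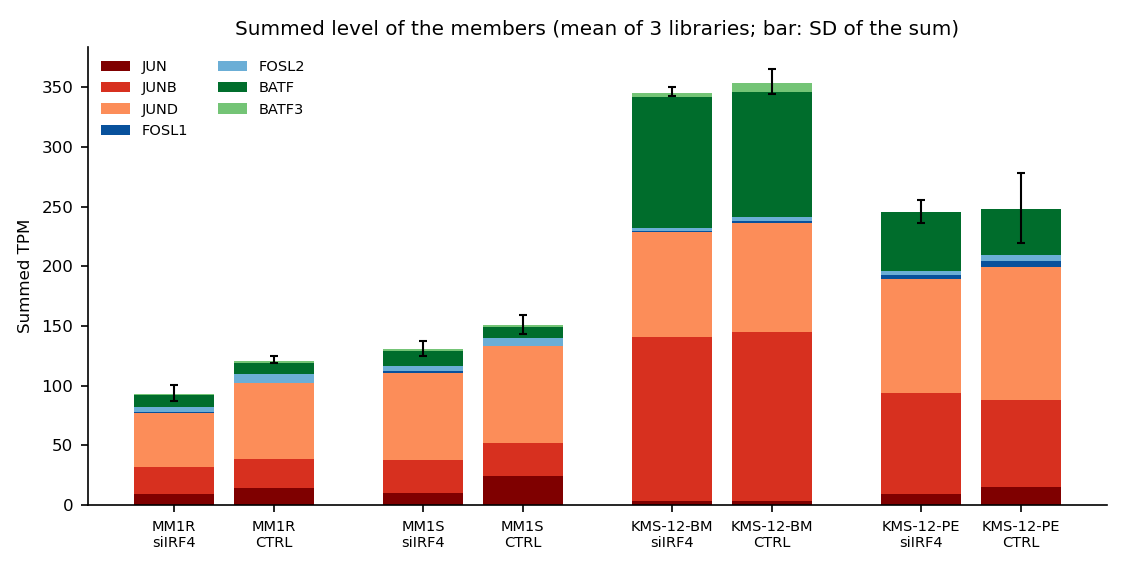
Summed TPM of the 7 members tested, stacked by gene (reds, JUN family; blues, FOS family; greens, BATF family), as means of 3 libraries for siIRF4 and CTRL cells of each line, and the SD of the sum of all 10 members as a bar. KMS-12-BM and KMS-12-PE carried more JUNB and BATF than the MM1 lines in both conditions, and the FOS family was a thin band throughout.

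Within the JUN family, JUND led in MM1R with 58.4% in siIRF4 and 62.3% in CTRL cells, and JUNB led in KMS-12-BM with 59.9% in both conditions. The share of JUN in its family was 9.29% in siIRF4 and 18.4% in CTRL cells of MM1S, and 4.84% and 7.52% in KMS-12-PE, the library ranges being apart in both. Within the FOS family FOSL2 led in siIRF4 cells of every line, between 50.3% in KMS-12-PE and 83.6% in MM1R. In CTRL cells of KMS-12-PE FOSL1 had 49.4 ± 4.45% and FOSL2 41.7 ± 3.43% of the family, and the libraries of these 2 genes overlapped in TPM. BATF made up at least 85.4% of its family in every group.

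The order of the members from high to low was JUND, JUNB, BATF, JUN and FOSL2 in siIRF4 cells of MM1R, MM1S and KMS-12-PE, although BATF and JUN in MM1R and JUND and JUNB in KMS-12-PE overlapped. In CTRL cells of the MM1 lines JUN stood above BATF instead. In KMS-12-BM the order was JUNB, BATF, JUND and BATF3, then JUN, in both conditions, and BATF3 and JUN overlapped in siIRF4 cells only. BATF in KMS-12-BM, at 109.2 TPM in siIRF4 and 104.4 TPM in CTRL cells, thus stood above JUND, at 88.4 and 91.4 TPM.

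The lines' own levels were read in CTRL cells, where most genes differed between lines and the members were called at a similar share. FOS and BATF2 were called in no comparison of lines without the filter on low values. In MM1 lines minus KMS-12 lines 2 members were higher and 5 lower, where 85.2% of all genes were called, 40.4% higher and 44.8% lower. BATF was lower in the MM1 lines by 2.64 ± 0.061 and JUNB by 1.94 ± 0.047 on the log2 scale (limma adjusted p = 1.6e-20 and 3.1e-20), while JUN was higher by 1.20 ± 0.049 and FOSL2 by 0.63 ± 0.072. FOSL1 was lower by 1.37 and JUND by 0.48. The BATF3 difference of -0.33 became 0.43 with a pseudocount of 0.1 and 0.75 with voom, and without CTRL library 2 of MM1S it was -0.26 (adjusted p = 0.0648), so its direction is not given.

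In KMS-12-BM minus KMS-12-PE 3 members were higher and 3 lower, where 77.3% of all genes were called, 37.3% higher and 40.0% lower. BATF3 was higher in KMS-12-BM by 3.06 ± 0.18, BATF by 1.41 ± 0.087 and JUNB by 0.95 ± 0.066. JUN was lower by 1.75 ± 0.070 and FOSL1 by 1.59 ± 0.14. JUND was lower by 0.27 ± 0.11 (adjusted p = 0.0264), a call lost without CTRL library 2 (-0.26) or 3 (-0.21) of KMS-12-BM, without CTRL library 1 (-0.18) or 2 (-0.21) of KMS-12-PE, and in a separate fit (adjusted p = 0.131). FOSL2 was at -0.23 ± 0.10 (adjusted p = 0.0506) and was not called, but it was called without any 1 of 8 libraries, at -0.23 to -0.28 with adjusted p-values of 0.0292 to 0.0495. These were siIRF4 library 3 of MM1R, siIRF4 libraries 2 and 3 of MM1S, siIRF4 library 1 and CTRL library 1 of KMS-12-BM, and siIRF4 libraries 1 and 3 and CTRL library 3 of KMS-12-PE.

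In MM1R minus MM1S 0 members were higher and 4 lower, where 57.3% of all genes were called, 29.7% higher and 27.6% lower. JUN was lower in MM1R by 0.70 ± 0.070 and FOSL1 by 0.56 ± 0.14 (limma adjusted p = 2.8e-08 and 0.00202), JUND by 0.34 ± 0.11 (adjusted p = 0.0106) and JUNB by 0.21 ± 0.066 (adjusted p = 0.00965). The JUND call was lost without CTRL library 3 of MM1S (-0.28, adjusted p = 0.0541). The stromal and epithelial sums were also lower in MM1R, at 33.8 to 35.9 and 2.83 to 3.87 TPM in MM1R CTRL libraries and 131.5 to 239.2 and 82.6 to 125.1 TPM in MM1S CTRL libraries, and their part in these differences was not tested. The CTRL libraries used here also enter the siIRF4 changes.

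By the pattern over the 8 group means of log2(TPM + 1), compared with 11075 genes, HIPK2, a nuclear kinase gene, was most like FOSL2 with a Pearson r of 0.9864, followed by KDELR1 and STX18. HIPK2 had 14.8 TPM in siIRF4 and 22.8 TPM in CTRL cells of MM1R, and 8.34 and 13.2 TPM in KMS-12-BM. NAA50, an acetyltransferase gene, was most like JUN (r = 0.9845), followed by UGGT2 and TEX2, and ASF1A, a histone chaperone gene, was most like JUND (r = 0.9830), followed by GLCE and ABCB10. PLXNB1 was most like BATF (r = 0.9987), followed by MPLKIP and RITA1, and FDXACB1 most like JUNB (r = 0.9988), followed by SIX5 and AIF1L. For FOSL1 the genes were SAMD8 (r = 0.9908), RSL1D1 and ECHDC1, and for BATF3 LRRC8B (r = 0.9702), MET and DAB2IP. The 8 points are 4 related lines in 2 conditions, so these values mostly follow the lines, and with a pseudocount of 0.1 AIF1L dropped to rank 54 for JUNB and MET to rank 88 for BATF3. With that pseudocount LRRC8B dropped to rank 20 for BATF3, and SAMD8, RSL1D1 and ECHDC1 to ranks 14, 19 and 8 for FOSL1.

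The other IRF and ETS partners of composite elements moved with siIRF4. On average SPIB rose by 0.83 ± 0.051, SPI1, which encodes PU.1, by 0.66 ± 0.047, and IRF8 by 0.19 ± 0.043 (limma adjusted p = 1.6e-11, 1.3e-10 and 0.00059), and with IRF4 lower the 4 genes held 3 higher and 1 lower. SPI1 had 53.8, 55.7 and 52.8 TPM in MM1S siIRF4 libraries, against 15.2, 18 and 18.3 TPM in MM1S CTRL libraries. It had 90.1, 79.4 and 67.4 TPM in MM1R siIRF4 libraries, against 42.1, 38.9 and 40.7 TPM in MM1R CTRL libraries. Both groups of siIRF4 libraries lay far above their CTRL libraries. In KMS-12-PE SPI1 had at most 6 reads in a library and was called lower (-0.30 ± 0.094, adjusted p = 0.0144), and SPIB had 7.38, 7.3 and 6.79 TPM in siIRF4 and 1.64, 1.56 and 1.32 TPM in CTRL libraries. IRF8 changed by between -0.07 and 0.12 in the other lines and rose in KMS-12-PE (0.71 ± 0.086, adjusted p = 1.3e-06), to 6.06, 6.27 and 7.91 TPM in siIRF4 libraries, against 3.94, 3.51 and 3.73 TPM in CTRL libraries.

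**Figure D5:**
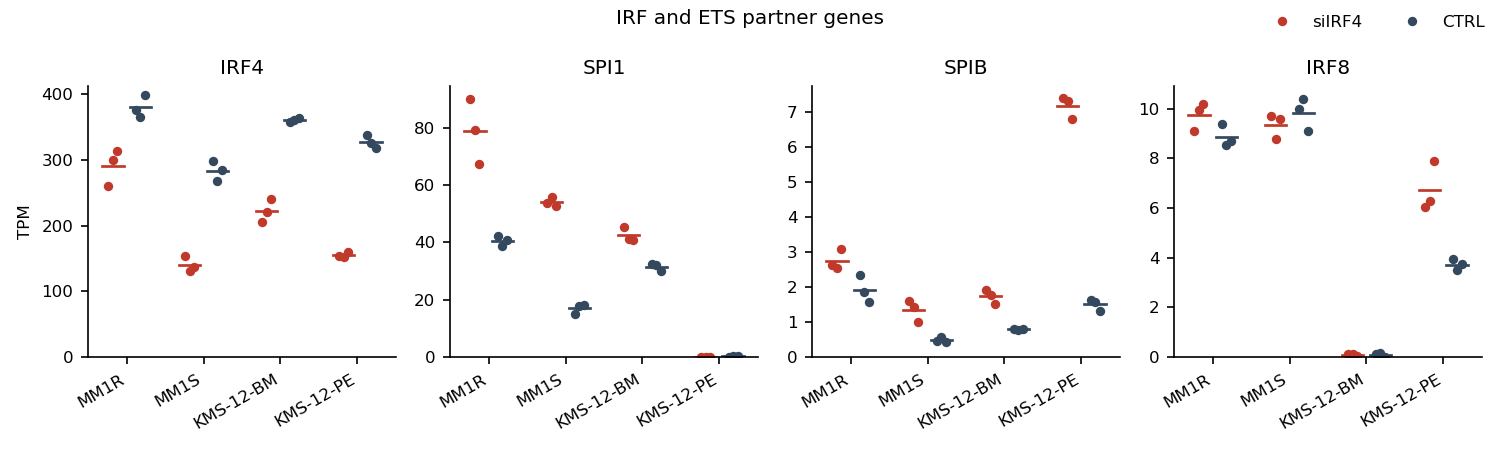
Level in TPM of IRF4 and of the other IRF and ETS partner genes in each library (points; red, siIRF4; dark blue, CTRL), with the group mean as a line. IRF4 lay lower in siIRF4 libraries of every line, SPI1 lay higher in the 3 lines that express it, and SPIB lay higher in all 4.

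Of 14 other bZIP genes tested, 3 were higher and 8 lower on average, where 33.1% of all genes were called higher and 26.5% lower. Their median log2 change was -0.18 against 0.024 over all genes. The lines differed, with 3 higher and 6 lower in MM1R (median -0.09) and 5 and 4 in MM1S (median 0.03). In KMS-12-BM 0 were higher and 6 lower (median -0.11), and in KMS-12-PE 1 and 7 (median -0.25). ATF4, the activator of amino acid stress genes, fell by 0.24 ± 0.020, ATF3, a stress-induced repressor that pairs with JUN, by 0.43 ± 0.047, and CEBPG by 0.22 ± 0.024 (limma adjusted p = 1.6e-09, 7.8e-08 and 9.7e-08). ATF3 had 10.5 TPM in siIRF4 and 16 TPM in CTRL cells of MM1R, 11.1 and 17.1 TPM in MM1S, and at most 1.74 TPM in a library of the KMS-12 lines. ATF7, ATF2 and NFE2L2 rose by 0.13, 0.12 and 0.06. ATF2 and ATF7 are both partners of JUN at CRE-like elements.

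Genes of the MAP kinase pathways, which phosphorylate JUN and switch on FOS, were mixed, with 9 of 17 higher and 5 lower on average and a median of 0.08. By line, 7 of the 17 were higher and 5 lower in MM1R (median 0.03), and 9 and 4 in MM1S (median 0.24). In KMS-12-BM 2 were higher and 1 lower (median 0.06), and in KMS-12-PE 4 and 8 (median -0.06). On average 33.1% of all genes were called higher and 26.5% lower, with a median of 0.024. MAPK3, which encodes ERK1, rose by 0.32 ± 0.023, MAP3K1 by 0.31 ± 0.035, and DUSP10, a phosphatase of JNK and p38, by 0.58 ± 0.061 (limma adjusted p = 1.3e-10, 1.1e-07 and 4.9e-08). DUSP10 had 7.42 TPM in siIRF4 and 2.6 TPM in CTRL cells of MM1R and 4.61 and 2.04 TPM in MM1S, and did not pass 0.738 TPM in a KMS-12 library. DUSP16 fell by 0.25 ± 0.032, MAPK9, which encodes JNK2, by 0.17 ± 0.027 and MAP2K1 by 0.13 ± 0.020. Of 10 factors that switch on AP-1 genes, 4 were higher and 4 lower (median 0.05), with SRF, the factor of the serum response element, lower by 0.21 and MEF2D, which acts on the JUN promoter, by 0.28. Of 6 ubiquitin ligase genes that act on JUN protein, 1 was higher, DET1 by 0.15, and 1 lower, ITCH by 0.07 (median 0.01).

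Among 9 immediate early genes tested that are not AP-1 genes, 3 were higher and 3 lower on average, with a median of -0.02. By line, 3 of the 9 were higher and 2 lower in MM1R (median -0.02), and 5 and 0 in MM1S (median 0.24). In KMS-12-BM 2 were higher and 3 lower (median -0.13), and in KMS-12-PE 4 and 3 (median -0.00). On average 33.1% of all genes were called higher and 26.5% lower, with a median of 0.024. BTG2, an antiproliferative gene, rose by 0.66 ± 0.035, KLF6 by 0.38 ± 0.033 and IER5 by 0.34 ± 0.038 (limma adjusted p = 2e-12, 2.8e-09 and 1.2e-07). BTG2 had 774.1 TPM in siIRF4 and 454.9 TPM in CTRL cells of MM1S, and 35.8 and 25.6 TPM in KMS-12-PE. NR4A1, a nuclear receptor gene induced by antigen receptor signals, fell by 0.60 ± 0.045, with 2.32 TPM in siIRF4 and 6.27 TPM in CTRL cells of KMS-12-PE and 7.9 and 11.5 TPM in KMS-12-BM. NR4A2 and ZFP36 fell by 0.15 and 0.11.

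Of 12 AP-1 target genes known mainly from other cell types, 4 were higher and 4 lower on average, with a median of -0.04. Of all genes 33.1% were called higher and 26.5% lower on average, with a median of 0.024. EMP1 fell by 0.55 ± 0.068, LMNA by 0.25 ± 0.036 and VEGFA by 0.24 ± 0.032, and MMP9, a matrix protease gene, rose by 0.62 ± 0.090, PLAU by 0.29 ± 0.041 and IL2RA by 0.13 ± 0.040. EMP1 had 0.865 TPM in siIRF4 and 4.08 TPM in CTRL cells of KMS-12-PE, where the keratin markers were also lower, and their part in it was not tested. Of 8 genes that BATF and IRF4 bind together in lymphocytes 3 were tested, and 2 were higher and 1 lower on average. PRDM1, which encodes the plasma cell factor BLIMP1, fell by 0.54 ± 0.027 (limma adjusted p = 8.6e-13), and IL10 rose by 0.38 ± 0.053. PRDM1 had 25.1 TPM in siIRF4 and 46 TPM in CTRL cells of KMS-12-PE and 103.8 and 137.2 TPM in MM1R.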

How the data were processed

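Total RNA of 24 libraries was measured by RNA sequencing. Per the submitters' processing notes the tools were STAR, featureCounts, FastQC and MultiQC, with build hg19; their versions, the annotation and the strand setting are not stated there. The values the authors deposited are TPM, a column for each library, over 25370 listed genes, of which 28 rows with calendar dates for symbols and 1 with none were left out. Columns matched no sample in 0 cases. The labels give no sequencing batch.

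Whole reads were recovered from the TPM within a tolerance of 0.02 reads for 20484 of 20484 genes with a value in at least 6 libraries, covering at least 99.96% of each library's TPM. Totals were 17.3 to 27.4 M reads, and limits from reads cover counting error only. No replicates were copies of a library (lowest chi-square per degree of freedom 2.05).

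The main test was limma 3.58.1 in R 4.3.3 on log2(TPM + 1), 1 fit of 8 group means, trended and robust eBayes, genes at 1 TPM or more in 3 or more libraries, Benjamini-Hochberg adjustment per comparison, two-sided. It was tested on simulated data. Exact permutations within lines ran over 160000 arrangements; within 1 line the smallest p is 0.1. Alternatives were a pseudocount of 0.1, no filter, median-of-ratios scaling, separate fits per comparison, the replicate number as a block, and leaving out single libraries. Added after the data were seen were limma's voom on the recovered reads, with library sizes by median of ratios, and the average over MM1R and KMS-12-BM alone.

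The members, gene lists and tests were chosen with earlier results of these data known. Named genes were the 10 members, IRF4, the IRF and ETS partners, for each tested member the 3 genes with the highest Pearson r over group means (at least 5 TPM in some group), and up to 3 genes higher and 3 lower with the smallest p from each list; 1 gene that this rule names is not reported here. ITGB7, EPCAM, KRT5, KRT14, COL3A1, S100A8, S100A9, SPARC and the genes overlapping members were named after their values were seen. Python 3.11.15, numpy 2.4.6, pandas 2.3.3 and matplotlib 3.10.9 were used. Promoter sequences are RefSeq's, on GRCh38.p14; no coordinates of hg19 are given.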

Additional observations from a re-analysis of the deposited data

Results flagged for a closer look

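Between lines, 5 siIRF4 effects on members differed by the limma test of the difference itself in the main fit. The JUN effect was 0.58 less negative in MM1R than in MM1S (-0.59 and -1.16 on the log2 scale), and 0.53 less negative in KMS-12-BM than in KMS-12-PE (-0.11 and -0.64). The JUN effect of the MM1 lines minus that of the KMS-12 lines was -0.50. The FOSL1 effect of the MM1 lines minus that of the KMS-12 lines was 0.75, with 0.09 for MM1R, 0.35 for MM1S, -0.34 for KMS-12-BM and -0.73 for KMS-12-PE. The BATF3 effect of KMS-12-BM minus that of KMS-12-PE was -0.96, with -0.89 for KMS-12-BM and 0.07 for KMS-12-PE, where BATF3 had at most 3 reads in a library. This BATF3 difference was not called with a pseudocount of 0.1 or with voom on recovered reads.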

How the results depend on the processing

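Of 77 member changes tested, 42 were called. The calls of JUN, of JUND in MM1R and on average, of FOSL2 on average and in the MM1 lines, of FOSL1 in KMS-12-PE and of BATF in MM1S and KMS-12-PE held under each alternative run for them. Calls that did not hold stand beside their values in the results, and their causes were not tested. Depth limits FOS, FOSB, BATF2, BATF3 outside KMS-12-BM, and FOSL1 outside KMS-12-PE.

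With a pseudocount of 0.1, 1 member was called in KMS-12-BM and 1 in the difference of effect between the KMS-12 lines (2 each in the main fit), and with a separate fit 3 in KMS-12-PE (5). Genes called in the difference between MM1R and MM1S, 374 in the main fit, were 171 with a pseudocount of 0.1, 243 with a separate fit and 567 with voom. Median-of-ratios scaling moved the median of all genes by less than 0.1 in each comparison. The JUNB change in MM1S was -0.04 with scaling and -0.03 with voom (0.00 in the main fit), and its average over MM1R and KMS-12-BM alone was -0.05. The BATF difference between MM1R and MM1S in CTRL cells was -0.00 with scaling and with voom. For BATF3 the effect of MM1 minus KMS-12 lines was -0.35 with a pseudocount of 0.1 and -0.42 with voom (0.02), and the CTRL difference 0.43 and 0.75 (-0.33).

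Same-numbered libraries did not deviate together (r -0.0878 to 0.0861), so the replicate block pairs by number only. It gave 183 genes in the difference between MM1R and MM1S and a call for FOSL1 on average (-0.16, adjusted p = 0.0403), and no other member call changed. The planned voom with TMM factors is not reported, since the deposited unit is TPM.

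Leaving out libraries gave 1751 to 2812 genes in KMS-12-BM (1751 without its siIRF4 library 1) and 1 to 2 members, and 192 to 441 genes and 1 to 2 members in the difference between MM1R and MM1S. Small changes crossed 0: BATF in MM1R -0.03 to 0.20, JUNB in MM1S -0.04 to 0.06, BATF3 in MM1S -0.34 to 0.01, JUND in KMS-12-BM -0.10 to 0.02, BATF3 in KMS-12-PE -0.02 to 0.16 and JUNB on average -0.00 to 0.04. So did the effects of MM1 minus KMS-12 lines, BATF -0.01 to 0.11 and BATF3 -0.06 to 0.12, and the CTRL differences of MM1R minus MM1S, BATF -0.04 to 0.10 and BATF3 -0.03 to 0.23. The FOSL1 average was called without MM1S siIRF4 3 or CTRL 1, KMS-12-BM CTRL 3 or KMS-12-PE CTRL 2 (-0.20 to -0.17).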
